A study of Hynobius leechii and Hynobius unisacculus and Hynobius quelpaertensis with 23 samples.

Results

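Skin was compared with liver in Hynobius leechii, a salamander found in Korea, over 8 RNA sequencing libraries of the 23 in the series. Skin came from 2 animals, mms7665 of the lineage labelled HC1 and mms7661 of the lineage labelled HC3. Liver came from 6 animals, mms7664, mms7665 and mms7666 of HC1 and mms7660, mms7661 and mms7662 of HC3, so the skin animals also gave 1 liver each. All were untreated adults caught in the wild by their labels, and the libraries were made from polyadenylated RNA. The extraction protocol speaks of embryos, although the labels give adult tissue. Sex, age and site of the skin sample are not given in the sources used here. Each lineage had its own table of read counts over its own assembled sequences, so tissues were compared within a table and lineage was a term of the model. The genes were the 6220 symbols named in both tables, out of 10077 in the HC1 table and 7687 in the HC3 table, and 5762 of them had enough counts to be tested.

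Amphibian skin is a stratified epithelium of keratin-filled cells joined by desmosomes, anchored to a basement membrane and covered by a thin cornified layer. It holds mucous and granular glands, takes up salt and water, and lies over dermis and muscle. Liver is built mainly of hepatocytes, which secrete most plasma proteins, make bile acids, break down amino acids and convert foreign compounds. In amphibians liver also holds pigmented macrophages.

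The tables held 4628175 counts in the HC1 skin and 2552636 in the HC3 skin, against 8672566 to 18699540 in the livers, so the skins were the shallower libraries. Levels are given as CPM, the counts scaled to a whole-table total of 1000000, and livers are listed in the order of the animals above, so the second liver of each lineage is that of the skin animal. These second livers stood apart from the others. Among counts of 1 to 19, odd values made up 46.0% in liver mms7665 and 43.0% in liver mms7661, against 11.3% to 17.1% in the other 6 libraries. Rows without a count made up 40.8% and 35.0% of their tables, against 5.20% to 15.9% elsewhere. Counts of different genes are not corrected for length, so levels are compared between libraries and not between genes. No length, sequence or chromosome position of these genes was used here.

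The labelled tissues were checked against marker genes. The 13 epidermal markers of each table summed to 31458 CPM in HC1 skin and 31770 in HC3 skin, against 54.0 to 504 CPM in the livers. Hepatocyte markers, 10 in the HC1 table and 9 in the HC3 table, summed to 348 CPM in HC1 skin and 15079 in HC3 skin, against 43799 to 125060 CPM in the livers. Most of the HC3 skin's sum was FGB, the fibrinogen beta chain, at 14685 CPM. Skeletal muscle markers summed to 4500 and 3630 CPM in the skins and to 13.8 to 1983 CPM in the livers. ACTA1 made up most of the sum in every HC1 library, at 4427 CPM in the skin and 1461 to 1931 CPM in the livers. The other 5 markers had no count in liver mms7665. In HC3 skin ACTA1 had 1525 CPM and MYLPF, another of these markers, 2027 CPM. Pancreas markers, 2 in each table, summed to 0.864 and 5.48 CPM in the skins. The HC1 livers held 0 to 1.61 CPM of them and the HC3 livers 16.1 to 10556 CPM. A wider list of pancreatic genes was not near 0 in the HC1 livers, with sums of 1914 to 6533 CPM, against 13.8 in HC1 skin. In the HC3 table it summed to 1296 CPM in the skin, against 9148 to 31722 in the livers. Pigment cell markers summed to 3904 CPM in HC1 skin and 18.4 in HC3 skin, against 22285 CPM in the liver of animal mms7665 and 19.0 to 2315 CPM in the other livers. Gut markers numbered 2 in the HC1 table, and VIL1 was the only one in the HC3 table. They summed to 260 CPM in each skin, against 7.07 to 34.1 CPM in the livers. These sums came from different genes, as VIL1 had 1.30 CPM in HC1 skin. A wider list of enterocyte genes summed to 363 CPM in HC1 skin, against 48.9 to 115 in HC1 livers. In the HC3 table that list went the other way, with 290 CPM in the skin, against 2775 to 10182 in the livers. Erythroid markers numbered 2 in the HC1 table and 4 in the HC3 table. They summed to 213 and 9408 CPM in the skins, against 11.6 to 28.7 in HC1 livers and 2332 to 7702 in HC3 livers. Leukocyte markers, 4 in the HC1 table and 3 in the HC3 table, summed to 201 and 1998 CPM in the skins. The HC1 livers held 928 to 1769 CPM and the HC3 livers 221 to 382 CPM. Endothelial markers numbered 4 in the HC1 table, and TEK was the only one in the HC3 table. They summed to 22.5 and 0.784 CPM in the skins, against 19.6 to 520 in HC1 livers and 0 to 0.207 in HC3 livers. A wider list of endothelial genes summed to 51.7 CPM in HC3 skin, against 15.8 to 47.9 in HC3 livers. In the HC1 table it summed to 82.8 CPM in the skin, against 103 to 597 in the livers. Sums over different sets of markers are compared within a table only. In such bulk samples, fewer cells of a type and less RNA per cell cannot be told apart.

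Genes called higher in skin included those of the epidermis, its cornified layer and its glands, and genes called lower in skin included those for plasma proteins, clotting factors and amino acid breakdown. By edgeR's quasi-likelihood test at an adjusted p under 0.05, 459 of 5762 genes (7.97%) were higher in skin and 58 (1.01%) were lower. Over all genes the median log2 fold change was 1.53 rather than 0. The 10 most abundant rows held 27.5% of counts in the HC1 skin and 19.1% in the HC3 skin, against 26.3% to 37% in the livers, and the part of this and of depth in the shift was not tested. With TMM scaling, which aligns the bulk of the genes, that median was 0.44, and 89 genes (1.54%) were higher and 60 (1.04%) lower. Of these, 89 and 51 were also called on whole-table totals. The calls and the log2 fold changes given here are against 0, not against this median. All 459 higher genes lay above all 3 livers in each table, as did 2561 of all 5762 genes. Of the 58 lower genes 55 lay below them, as did 224 of all 5762. The calls were made on the same libraries, so these counts are no separate evidence. The gene lists used below were chosen with earlier results of these data known. Shares of calls within a list therefore describe its members and are no independent evidence either.

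**Figure D1:**
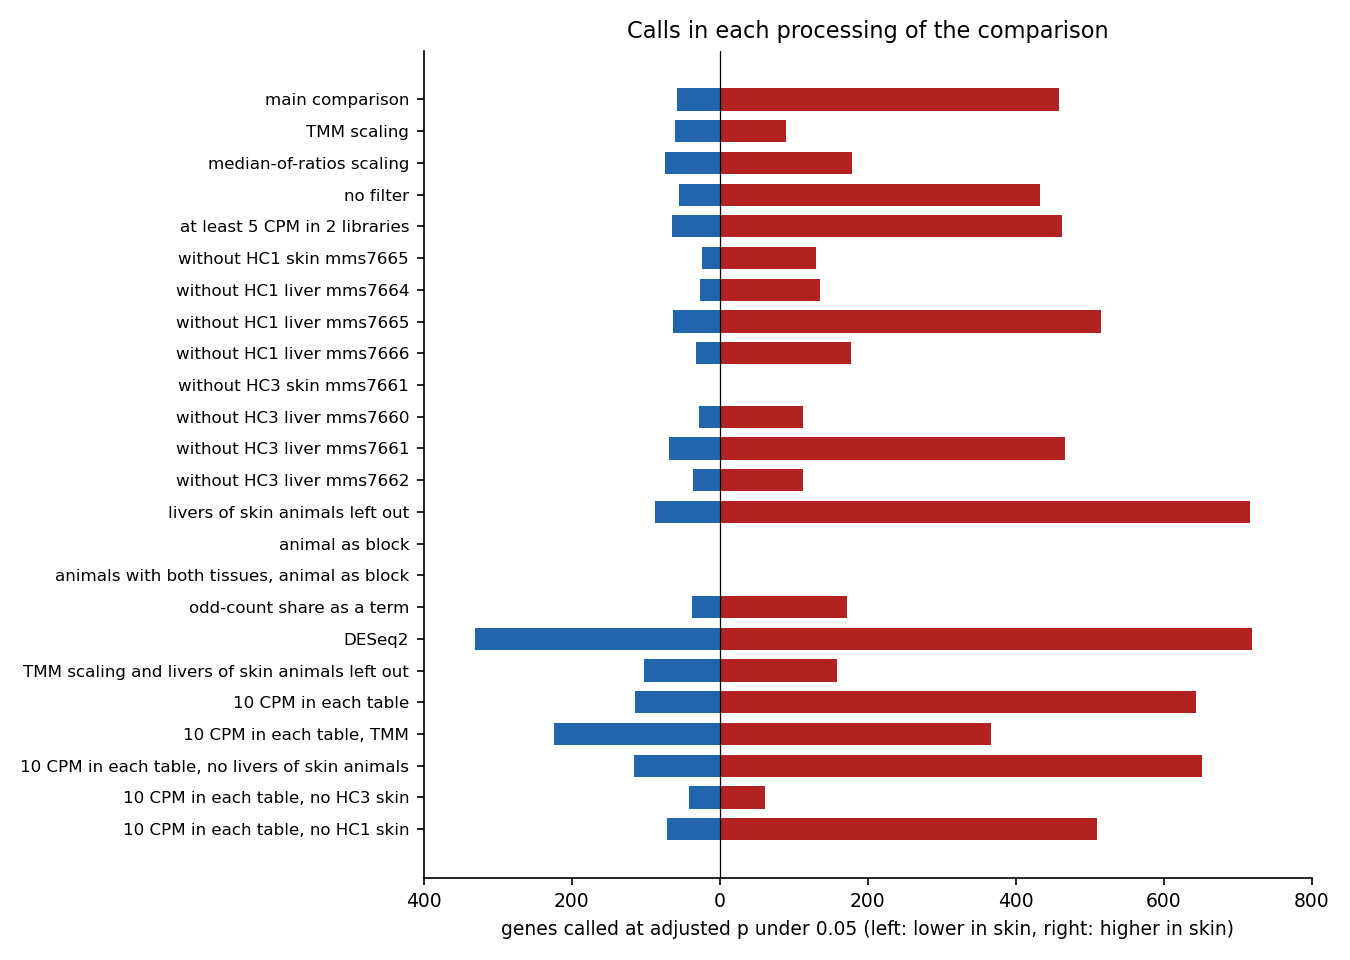
Genes called higher in skin (bars to the right) and lower in skin (bars to the left) in each processing of the comparison, as numbers of genes. The main comparison has 459 higher and 58 lower, and the empty lines, without the HC3 skin and with the animal as a block, have 0.

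Of the 459 higher genes, 66 had 10 or fewer counts in 1 of the skins. The calls rested more on the HC3 skin than on the HC1 skin. Without the HC1 skin 130 genes were higher and 24 lower. Without the HC3 skin none passed, the smallest adjusted p being 0.0548, while 781 had an unadjusted p under 0.05. With the animal as a block none passed either, at a smallest adjusted p of 0.0707 and with 1034 genes at an unadjusted p under 0.05. With the 2 livers of the skin animals left out, 716 genes were higher and 88 lower. Leaving out another liver lowered both counts, to 136 and 27 without mms7664, 177 and 32 without mms7666, 113 and 28 without mms7660, and 113 and 36 without mms7662.

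Many symbols had nearly all of their counts in 1 of the tables. Of the 6220 symbols, 2292 reached 10 CPM in at least 1 library of each table, 1127 in the HC1 table only, 1407 in the HC3 table only and 1394 in neither. Among the 459 higher genes 334 reached it in both, and among the 58 lower genes 54. Over the 2292 genes alone, the median log2 fold change was 0.999, and 644 genes (28.1%) were higher and 115 (5.02%) lower. Without the HC1 skin 510 of them were higher and 71 lower, and without the HC3 skin 61 were higher and 42 lower. With TMM scaling 367 of them (16%) were higher and 224 (9.77%) lower, with a median of 0.08. The skin lay above all 3 livers in both tables for 1007 of these genes (43.9%) and below them for 197 (8.6%). A gene could enter this group through a high level in 1 tissue alone, so its counts describe the genes and are no separate evidence. Across the 2292 genes the log2 ratios of the 2 tables had a Spearman rho of 0.71, as a description across genes, which are not independent replicates. It was 0.375 over all 5762.

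**Figure D2:**
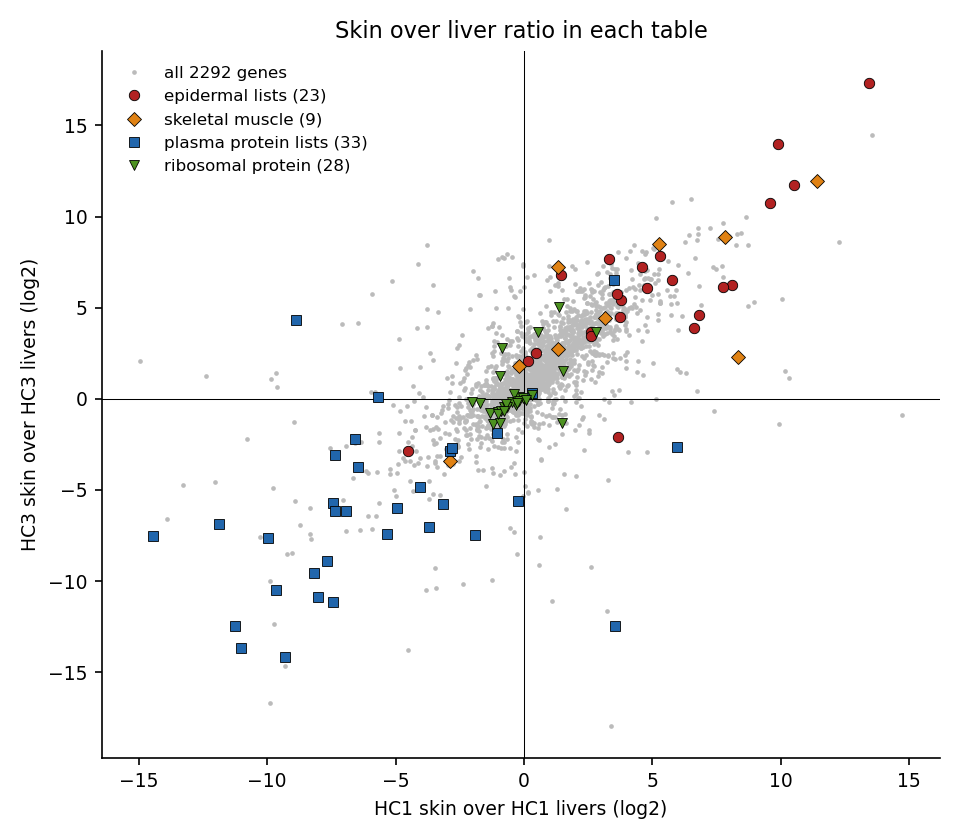
Log2 ratio of skin to liver in the HC1 table (horizontal axis) and in the HC3 table (vertical axis), 1 point a gene, for the 2292 genes with 10 CPM or more in each table. Members of 5 epidermal lists lie mostly in the upper right, plasma protein lists mostly in the lower left, and ribosomal proteins mostly near 0.

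Of 11 tested cornified envelope genes, 4 were higher in skin and none lower, against 7.97% and 1.01% of all genes, and 3 were higher with TMM scaling, against 1.54%. RPTN, repetin, a protein of the cornified layer, had 3289 CPM in HC1 skin and 11627 in HC3 skin, against 0.692, 0.119 and 0.129 in HC1 livers and 0.207, 0 and 0 in HC3 livers. CRNN, cornulin, which is made in squamous epithelia, had 25044 CPM in HC1 skin and 15322 in HC3 skin, against 2.998, 0.238 and 2.96 in HC1 livers and 0.826, 0 and 1.25 in HC3 livers. Both were near 0 in every liver and among the most abundant rows of both skins. Their log2 fold changes were 15.68 ± 1.61 (SE), adjusted p = 0.00267, and 14.03 ± 1.58 (SE), adjusted p = 0.003698. EVPL, envoplakin, which lines the cornified envelope, had 4461 CPM in HC1 skin and 5275 in HC3 skin, against 5.304, 2.91 and 9.02 in HC1 livers and 4.85, 0.588 and 3.84 in HC3 livers, with the log2 fold change at 10.22 ± 0.98 (SE), adjusted p = 0.00267. TGM1, the transglutaminase that links envelope proteins to each other, had 716 CPM in HC1 skin and 1036 in HC3 skin, against 17.1, 13.3 and 9.53 in HC1 livers and 9.71, 6.52 and 17.4 in HC3 livers, with the log2 fold change at 6.17 ± 0.65 (SE), adjusted p = 0.00267. These 4 genes were high in both skins with no overlap with the livers, and each stayed called with TMM scaling, CRNN at an adjusted p of 0.00771 and the others at 0.00651. CRNN was not a member of the list of cornified envelope genes.

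PPL, periplakin, the partner of envoplakin, was measured mainly in the HC1 table, with 7484 CPM in HC1 skin and 5.48 in HC3 skin, against 209.7, 241 and 146 in HC1 livers and 0.413, 0 and 0.623 in HC3 livers. It was called on whole-table totals (log2 fold change 4.72 ± 0.99 (SE), adjusted p = 0.0251) and not with TMM scaling, where its adjusted p was 0.108. SPINK5, a protease inhibitor of the mammalian epidermis, was lower than every liver in both tables. It had 2.16 CPM in HC1 skin and 2.35 in HC3 skin, against 40.1 to 62.7 in HC1 livers and 4.67 to 34.6 in HC3 livers, without passing the test (adjusted p = 0.0801). TGM3, another epidermal transglutaminase, had 274 CPM in HC1 skin and 41.5 in HC3 skin, against 0.231, 0.594 and 134 in HC1 livers and 7.02, 0 and 4.36 in HC3 livers. Both skins lay above their livers, of which 1 was far above the rest, and the gene was not called (adjusted p = 0.3102). The median log2 fold change of the cornified envelope genes was 2.57.

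**Figure D3:**
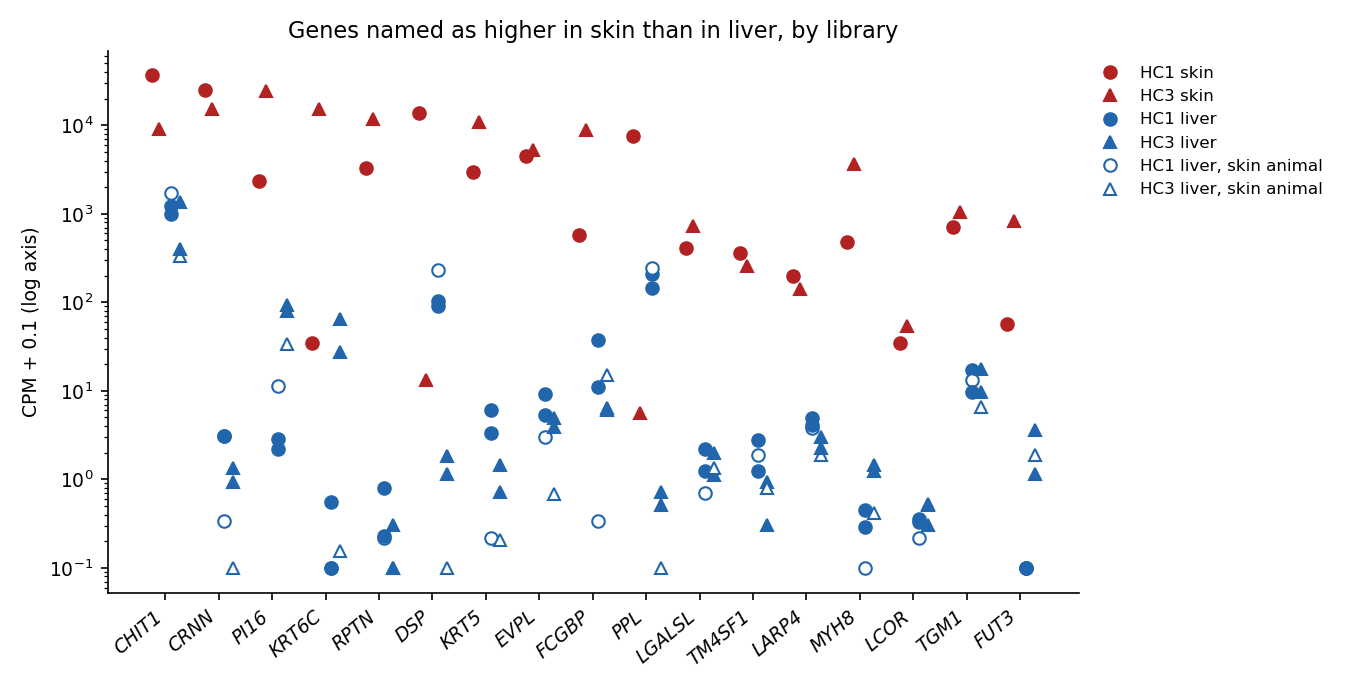
CPM plus 0.1 on a log axis for the genes named as higher in skin, 1 point a library, with skins in red to the left and livers in blue to the right. RPTN, CRNN and KRT5 lie at 2949 CPM or more in both skins and under 10 CPM in every liver, while DSP, PPL and KRT6C are high in 1 skin and at 34.4 CPM or less in the other.

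Keratins, the intermediate filaments of epithelia, showed different members in each table. KRT5, a keratin of basal epidermal cells, had 2949 CPM in HC1 skin and 10860.1 in HC3 skin, against 3.23, 0.119 and 6.05 in HC1 livers and 1.34, 0.107 and 0.623 in HC3 livers. Its log2 fold change was 12.58 ± 1.70 (SE), adjusted p = 0.00783, and 11.36 with TMM scaling (adjusted p = 0.0147). KRT13, a keratin of internal stratified epithelia in mammals, had 339.7 CPM in HC1 skin and 2533 in HC3 skin, against 61.8, 9.45 and 32.5 in HC1 livers and 21.7, 2.09 and 13.2 in HC3 livers. KRT13 had a log2 fold change at 6.32 ± 1.34 (SE), adjusted p = 0.0257. KRT6C, which was not on the list of keratins, had 34.4 CPM in HC1 skin and 15286 in HC3 skin, against 0.461, 0 and 0 in HC1 livers and 64.4, 0.0535 and 27.7 in HC3 livers (log2 fold change 8.54 ± 1.82 (SE), adjusted p = 0.0265, and 7.43 with TMM scaling (adjusted p = 0.0765)). Nearly all of its counts were in the HC3 table, and both skins lay above their livers. KRT14, the usual partner of KRT5, had 2.16 CPM in HC1 skin and 105 in HC3 skin, against 0 in HC1 livers and 1.66 to 14.7 in HC3 livers (adjusted p = 0.0313), and KRT24 was the other call (adjusted p = 0.0397).

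Other keratins had nearly all of their counts in 1 table. KRT4 had 2777 CPM in HC1 skin, against 0 in HC1 livers, and KRT75 had 5443 CPM in HC3 skin, against 109 to 225 in HC3 livers. KRT8 and KRT18, the pair of simple epithelia such as hepatocytes, were also split between the tables. KRT8 had 3102 CPM in HC1 skin, against 777 to 1118 in HC1 livers, and KRT18 had 403 CPM in HC3 skin, against 328 to 928 in HC3 livers. KRT4, KRT75, KRT8 and KRT18 were not called (adjusted p = 0.0514, 0.152, 0.782 and 0.213). Of 12 keratins tested, 4 were higher and none lower, against 7.97% of all genes, and 1 was higher with TMM scaling. Their median log2 fold change was 3.68, which was 2.14 above that of all genes. Reads of such closely related copies may be split between rows, so the identity of single keratins is uncertain.

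Desmosomes are the junctions that tie keratin filaments of neighbouring cells together. Of 9 tested genes 2 were called higher and 1 with TMM scaling, against 7.97% and 1.54% of all genes, and the skins of 8 lay above all livers of both tables, as did those of 2561 of all 5762 genes. DSP, desmoplakin, which links desmosomes to keratins, had 13923 CPM in HC1 skin and 13.3 in HC3 skin, against 90.1, 231 and 105 in HC1 livers and 1.76, 0 and 1.04 in HC3 livers. Nearly all of its counts were in the HC1 table (log2 fold change 5.59 ± 1.29 (SE), adjusted p = 0.0336, and 4.73 with TMM scaling (adjusted p = 0.118)). The desmosomal cadherins DSG1 and DSC2 showed the opposite split. DSG1 had 1.73 CPM in HC1 skin and 4868 in HC3 skin, against 0 to 0.837 in HC1 livers and 4.12 to 6.81 in HC3 livers, and DSC2 had 4.75 CPM in HC1 skin and 8809 in HC3 skin, against 0 to 2.06 in HC1 livers and 16.2 to 27.4 in HC3 livers. Their adjusted p-values were 0.0507 and 0.0616. DSG4, a further desmoglein, was called (log2 fold change 5.53 ± 0.96 (SE), adjusted p = 0.0134) with 0.432 CPM in HC1 skin and 65.03 in HC3 skin, against 0 in HC1 livers and 0.642 to 2.37 in HC3 livers. It was the desmosome call that held with TMM scaling (adjusted p = 0.0424). Its HC1 skin value was 2 counts, so the call rested mainly on the HC3 table. PERP, a desmosomal membrane protein, had 2165 CPM in HC1 skin, against 74.1 to 113 in HC1 livers, and was not called (adjusted p = 0.185).

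Anchoring of the epidermis to its basement membrane gave 2 higher calls among 11 genes and 1 with TMM scaling, against 7.97% and 1.54% of all genes. COL17A1, the collagen of hemidesmosomes, had 1214 CPM in HC1 skin and 688 in HC3 skin, against 1.15, 0.238 and 1.09 in HC1 livers and 0.207, 0 and 0.415 in HC3 livers. Skin was 1466-fold above the mean of the livers in HC1 and 3322-fold above it in HC3 (log2 fold change 11.14 ± 1.17 (SE), adjusted p = 0.00277, and 10.02 with TMM scaling (adjusted p = 0.00651)). ITGB4, its integrin partner, had 692 CPM in HC1 skin and 6.27 in HC3 skin, against 7.96, 15.5 and 8.76 in HC1 livers and 0.413, 0 and 0.415 in HC3 livers. On the log2 scale ITGB4 differed by 5.41 ± 0.95 (SE), adjusted p = 0.01496. PLEC, plectin, which links keratins to the hemidesmosome, had 20.1 CPM in HC1 skin and 3203 in HC3 skin, against 0.119 to 13.1 in HC1 livers and 14.8 to 39.3 in HC3 livers, and was not called (adjusted p = 0.0898). The median log2 fold change of these genes was 3.01.

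Among the epidermal lists, that of epidermal regulators had the largest share of calls, 10 of 15 higher and none lower, against 7.97% of all genes. It also holds surface proteins such as SDC1 and EGFR. With TMM scaling 3 of the 15 were higher. SDC1, syndecan 1, a surface proteoglycan of epithelial cells, had 19.01 CPM in HC1 skin and 2792 in HC3 skin, against 0.231, 0 and 0 in HC1 livers and 63.6, 33.7 and 15.05 in HC3 livers. The fitted log2 difference for SDC1 was 7.11 ± 1.10 (SE), adjusted p = 0.0107. EGFR, the receptor for epidermal growth factor, had 436 CPM in HC1 skin and 1369 in HC3 skin, against 86.5, 56.8 and 71.2 in HC1 livers and 124, 60.6 and 144 in HC3 livers. For EGFR the log2 fold change was 3.17 ± 0.62 (SE), adjusted p = 0.0204. Its livers were well above 0, and both skins were still above all of them. LYPD3 was measured mainly in the HC1 table, with 1208 CPM in HC1 skin and 8.62 in HC3 skin, against 0.297 to 5.796 in HC1 livers and 0 to 1.25 in HC3 livers.

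Among transcription factors of the same list, KLF4 and GRHL1 were low in liver and well above it in both skins. KLF4, a factor of barrier formation, had 57.9 CPM in HC1 skin and 184 in HC3 skin, against 3.92, 4.46 and 4.38 in HC1 livers and 5.16, 1.71 and 6.02 in HC3 livers. GRHL1, a grainyhead factor that acts on desmosomal cadherin genes, had 353 CPM in HC1 skin and 465 in HC3 skin, against 0.577, 3.75 and 33.9 in HC1 livers and 16.005, 2.89 and 1.66 in HC3 livers. Their log2 fold changes were 4.71 ± 0.69 (SE), adjusted p = 0.00899, and 5.51 ± 1.28 (SE), adjusted p = 0.0348. KLF4 and SDC1 stayed called with TMM scaling, at adjusted p-values of 0.02804 and 0.0315. KLF5, DLX3, VDR and ESRP1 were also called higher, at adjusted p-values of 0.0197, 0.0301, 0.0271 and 0.0361. TP63, the factor that defines stratified epithelium, was at only 6.698 CPM in HC1 skin and 9.402 in HC3 skin, against 0 to 3.69 in HC1 livers and 0 to 0.415 in HC3 livers, and was not called (adjusted p = 0.203).

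Tight junction and adhesion genes gave 5 calls among 16, all higher, and 1 with TMM scaling, where all genes gave 7.97% and 1.54%. CDH1, E-cadherin, had 475 CPM in HC1 skin and 1797 in HC3 skin, against 62.1, 67.1 and 76.2 in HC1 livers and 72.6, 46.5 and 100.3 in HC3 livers. CDH1 had a log2 fold change at 3.85 ± 0.67 (SE), adjusted p = 0.0134. TJP1, a scaffold of tight junctions, had 621 CPM in HC1 skin and 662 in HC3 skin, against 60.8, 127 and 79.3 in HC1 livers and 44.2, 29.7 and 38.7 in HC3 livers. On the log2 scale TJP1 differed by 3.55 ± 0.61 (SE), adjusted p = 0.0134. The livers held clear levels of both, and each skin lay above the highest liver. TJP1 was the call that held with TMM scaling (adjusted p = 0.0472). EPCAM had 173 CPM in HC1 skin and 373 in HC3 skin, against 6.66 to 57.6 in HC1 livers and 7.26 to 40.5 in HC3 livers, and its call was lost without the livers of the skin animals (adjusted p = 0.0506). CTNNB1, beta-catenin, which links cadherins to actin, had 698 CPM in HC1 skin and 595 in HC3 skin, against 234 to 399.6 in HC1 livers and 93.5 to 164 in HC3 livers, and was not called (adjusted p = 0.11).

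Gland products gave 7 calls among 16 genes, all higher, and 2 with TMM scaling, compared with 7.97% and 1.54% of all genes. CHIT1, a secreted chitinase, had the highest mean CPM in skin among the genes called higher, with 36639 CPM in HC1 skin and 9147 in HC3 skin, against 1234, 1725 and 986 in HC1 livers and 1343, 331 and 402 in HC3 livers. Its livers were not low, and its log2 fold change was 4.31 ± 0.73 (SE), adjusted p = 0.0129, or 3.37 with TMM scaling (adjusted p = 0.0471). FCGBP, a large protein of mucus, had 577 CPM in HC1 skin and 8829 in HC3 skin, against 37.2, 0.238 and 11.1 in HC1 livers and 5.99, 14.9 and 6.33 in HC3 livers. The fitted log2 difference for FCGBP was 8.52 ± 1.72 (SE), adjusted p = 0.0222. The gel-forming mucins were split between the tables. MUC2 had 8.86 CPM in HC1 skin and 5639 in HC3 skin, against 0 to 2.77 in HC1 livers and 3.05 to 3.53 in HC3 livers, and MUC5B had 4998 CPM in HC1 skin and 3.92 in HC3 skin, against 0.129 to 0.231 in HC1 livers and 0 to 11.4 in HC3 livers. MUC2 was called (adjusted p = 0.0479), though not without the livers of the skin animals (adjusted p = 0.0573), and MUC5B was not called (adjusted p = 0.0944). GALNT3, which starts mucin-type sugar chains, had 149.95 CPM in HC1 skin and 251 in HC3 skin, against 0.692, 0.654 and 5.54 in HC1 livers and 2.89, 0.856 and 0.8301 in HC3 livers. For GALNT3 the log2 fold change was 6.76 ± 0.98 (SE), adjusted p = 0.00907. ZG16, a lectin of secretory granules, went the other way by level, with 0.432 CPM in HC1 skin and 1.57 in HC3 skin, against 5.29 to 23.1 in HC1 livers and 4.98 to 37.3 in HC3 livers (adjusted p = 0.08699).

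Salt and water transport gave 2 higher calls among 12 genes, where 7.97% of all genes were higher, and none with TMM scaling. ATP1B2, a beta subunit of the sodium pump, had 1781 CPM in HC1 skin and 1332 in HC3 skin, against 12.8, 2.02 and 20.5 in HC1 livers and 5.78, 0 and 0.208 in HC3 livers. ATP1B2 had a log2 fold change at 8.50 ± 1.69 (SE), adjusted p = 0.0216. SCNN1B, the beta subunit of the epithelial sodium channel through which amphibian skin takes up sodium, had 451 CPM in HC1 skin and 419.96 in HC3 skin, against 59.3, 18.1 and 35.3 in HC1 livers and 32.2, 0.695 and 26.3 in HC3 livers. On the log2 scale SCNN1B differed by 4.03 ± 1.02 (SE), adjusted p = 0.0449. Each skin lay above all livers of its table. RHBG, an ammonium transporter, was lower than all livers in the HC3 table only, with 135 CPM in HC1 skin and 1859 in HC3 skin, against 92.7 to 341 in HC1 livers and 7436 to 10891 in HC3 livers (adjusted p = 0.271). The median log2 fold change of this list, 1.85, was 0.31 above that of all genes.

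Some muscle genes were also higher in the skin samples. Of 25 skeletal muscle genes tested, 8 were higher and none lower, and 2 with TMM scaling, beside 7.97% and 1.54% of all genes called higher. MYH8, a myosin heavy chain, had 484 CPM in HC1 skin and 3678 in HC3 skin, against 0.346, 0 and 0.193 in HC1 livers and 1.14, 0.321 and 1.35 in HC3 livers (log2 fold change 11.70 ± 1.13 (SE), adjusted p = 0.00267, and 10.57 with TMM scaling (adjusted p = 0.00651)). ACTA1, skeletal alpha-actin, had 4427 CPM in HC1 skin and 1525 in HC3 skin, against 1889.9, 1461 and 1931 in HC1 livers and 7.64, 13.5 and 9.24 in HC3 livers. Its call (adjusted p = 0.0363) was lost without the livers of the skin animals (adjusted p = 0.07203). Myosins were split like the keratins, MYH1 with 3782 CPM in HC1 skin, against 1.19 to 3.11 in HC1 livers, and MYH2 with 4894 CPM in HC3 skin, against 0.374 to 5.78 in HC3 livers. XIRP2 and TCAP, proteins of the muscle sarcomere, were called at adjusted p-values of 0.0147 and 0.00783. XIRP2 had 75.6 CPM in HC1 skin and 34.1 in HC3 skin and did not pass with TMM scaling (adjusted p = 0.0502). TCAP had 1.30 CPM in HC1 skin, from 6 counts, and 131.6 in HC3 skin. Its livers held 0 CPM in HC1 and 0 to 0.413 in HC3, so its call rested mainly on the HC3 table. CNN1, calponin of smooth muscle, had 194 CPM in HC1 skin and 219.8 in HC3 skin, against 8.204 to 20.3 in HC1 livers and 12.4 to 28.4 in HC3 livers and was the 1 call among 5 smooth muscle genes (log2 fold change 3.46 ± 0.60 (SE), adjusted p = 0.0132). It did not pass with TMM scaling (adjusted p = 0.0799). How much muscle tissue each skin sample held was not tested.

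Dermal genes gave 2 higher calls among 22, a share close to the 7.97% of all genes. THBS1, thrombospondin 1, a matrix glycoprotein, had 1291 CPM in HC1 skin and 1299 in HC3 skin, against 104, 112 and 109.8 in HC1 livers and 51.01, 57.7 and 132 in HC3 livers. The fitted log2 difference for THBS1 was 3.80 ± 0.61 (SE), adjusted p = 0.0107. COL18A1 was the other call (adjusted p = 0.0476), with 169.6 CPM in HC1 skin and 7.84 in HC3 skin, against 4.28 to 8.65 in HC1 livers and 0 to 1.45 in HC3 livers. COL3A1, a fibrillar collagen, had 42.1 CPM in HC1 skin and 156 in HC3 skin, against 11.5 to 18.997 in HC1 livers and 9.25 to 52.1 in HC3 livers, and was not called (adjusted p = 0.139). Neither call held with TMM scaling. Immediate early genes gave 3 higher calls among 16, FOSL2, KLF6 and DUSP1, again beside 7.97% of all genes. FOSL2, an AP-1 factor, had 1459 CPM in HC1 skin and 2857 in HC3 skin, against 259, 290.04 and 194 in HC1 livers and 154, 109 and 195 in HC3 livers. For FOSL2 the log2 fold change was 3.51 ± 0.65 (SE), adjusted p = 0.0178. KLF6 alone stayed called with TMM scaling (adjusted p = 0.0327), with 139 CPM in HC1 skin and 575 in HC3 skin, against 8.82 to 22.9 in HC1 livers and 11.9 to 21.1 in HC3 livers.

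Pigment genes gave 1 call among 13, a share close to the 7.97% of all genes, and their levels differed widely within a tissue. TYR, tyrosinase, an enzyme of melanin synthesis, had 168 CPM in HC1 skin and 2.35 in HC3 skin, against 4.27, 4.34 and 3.99 in HC1 livers and 0.207, 0 and 0.208 in HC3 livers, and was the 1 call among 13 by edgeR (log2 fold change 4.86 ± 0.88 (SE), adjusted p = 0.0173, and 3.91 with TMM scaling (adjusted p = 0.0714)). PMEL, the fibril protein of melanosomes, had 3734 CPM in HC1 skin and 6.66 in HC3 skin, against 1819.7, 22279 and 2247 in HC1 livers and 97.5, 0.214 and 1.04 in HC3 livers. The liver of animal mms7665 held more PMEL than that animal's skin, and the other HC1 livers held less (adjusted p for tissue = 0.6098). GPNMB, found in melanosomes and macrophages, was lower in the HC1 skin than in all HC1 livers and lower in the HC3 skin than in all HC3 livers, with 86.6 CPM in HC1 skin and 15.7 in HC3 skin, against 109.5 to 424 in HC1 livers and 271 to 761 in HC3 livers (adjusted p = 0.179). The list's median log2 fold change was 1.54, as that of all genes was 1.53.

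Immune and blood cell genes were divided, beside 7.97% of all genes called higher and 1.01% called lower. CD74, the invariant chain of antigen presentation, was higher, with 26.8 CPM in HC1 skin and 1782 in HC3 skin, against 4.04, 2.85 and 9.27 in HC1 livers and 38.8, 23.2 and 156 in HC3 livers (adjusted p = 0.0443). The call was lost with TMM scaling (adjusted p = 0.214) and without the livers of the skin animals (adjusted p = 0.0526). MPO, myeloperoxidase of granulocytes, was lower (adjusted p = 0.04996), with 2.35 CPM in HC3 skin, against 491 to 702 in HC3 livers, and at most 0.231 CPM in the HC1 libraries, and did not pass with TMM scaling (adjusted p = 0.0794). CORO1A, an actin-binding protein of leukocytes, had 79.9 CPM in HC1 skin and 54.5 in HC3 skin, against 312 to 1268 in HC1 livers and 133 to 246 in HC3 livers (adjusted p = 0.139). CD74 and MPO were the 2 calls among 18 leukocyte genes, of which 1 was lower with TMM scaling, and the 10 erythroid genes had none by edgeR, with 3 at an unadjusted p under 0.05 and 1 called by DESeq2. HBB, a globin, had 0.216 CPM in HC1 skin and 6483 in HC3 skin, against 2.88 to 5.796 in HC1 livers and 899 to 3738 in HC3 livers. NOS3 was the 1 call among 6 endothelial genes (adjusted p = 0.0211) and MAP2 the 1 call among 3 nerve genes (adjusted p = 0.0378), both higher. Neither passed with TMM scaling (adjusted p = 0.0577 and 0.109). The endothelial genes had a median log2 fold change of -0.69, or -2.22 relative to that of all genes.

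**Figure D4:**
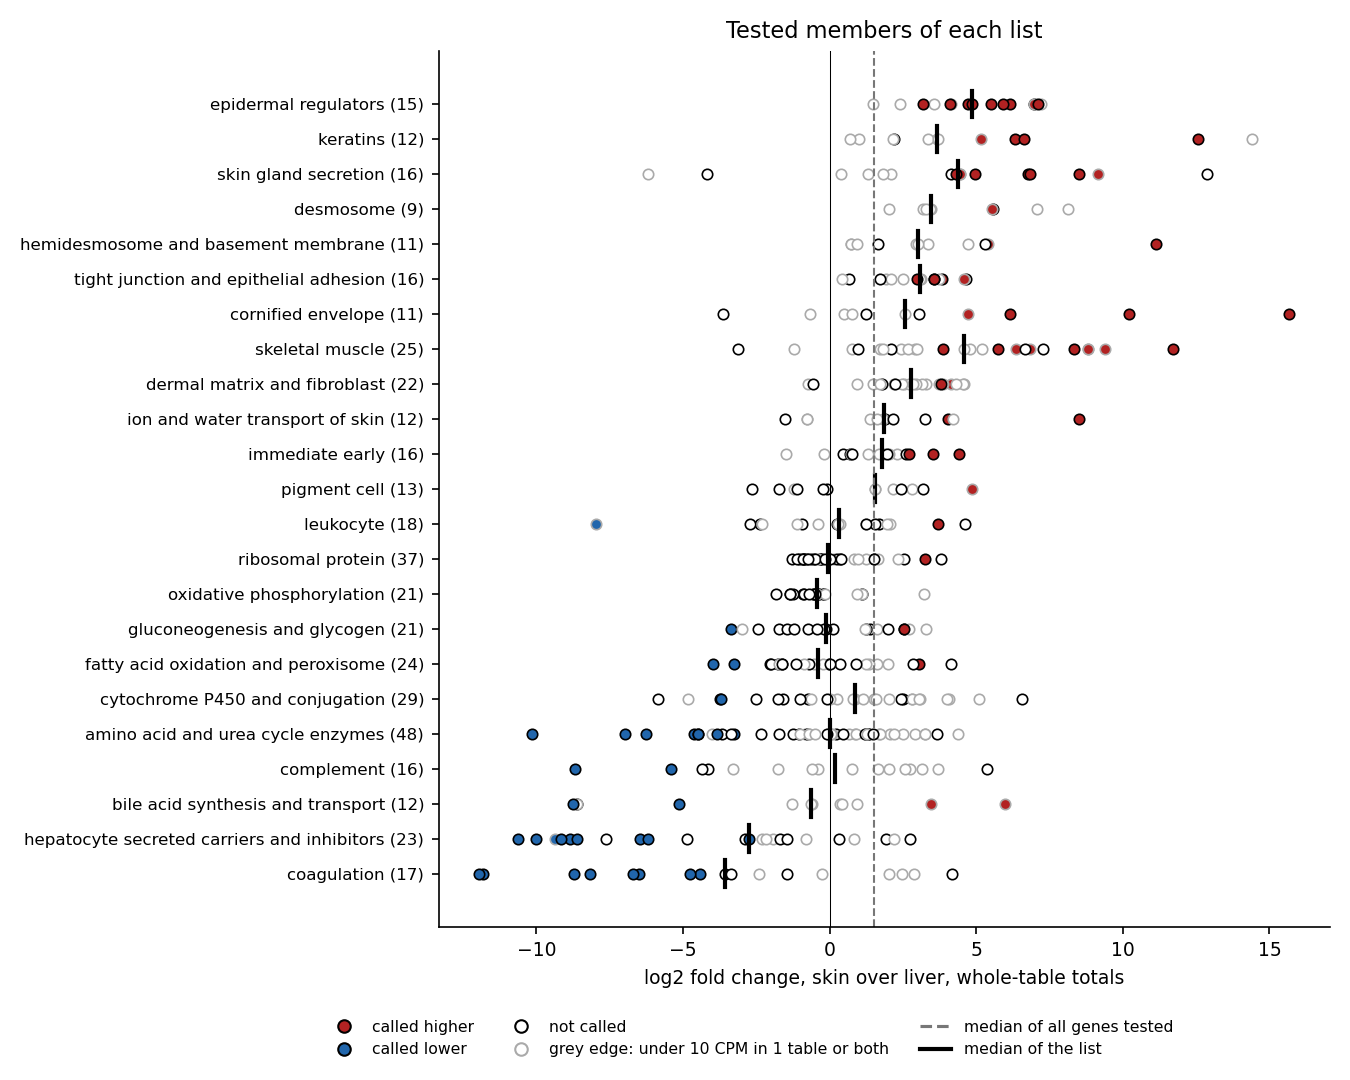
Log2 fold change of skin over liver on whole-table totals for each tested member of 23 lists, with the number tested in brackets and black edges for genes with 10 CPM or more in each table. Medians of the epidermal, gland and muscle lists lie to the right of the median of all genes (dashed line, at 1.53), and those of coagulation and secreted carriers lie left of 0.

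Outside these lists, the smallest p-values among higher genes went to genes of several roles. LGALSL, a galectin-like protein, had 414 CPM in HC1 skin and 721 in HC3 skin, against 1.15, 0.594 and 2.13 in HC1 livers and 1.03, 1.23 and 1.87 in HC3 livers. LGALSL had a log2 fold change at 8.69 ± 0.71 (SE), adjusted p = 0.00267. TM4SF1, a membrane protein of the tetraspanin type, had 359 CPM in HC1 skin and 259.7 in HC3 skin, against 1.15, 1.78 and 2.705 in HC1 livers and 0.826, 0.695 and 0.208 in HC3 livers. On the log2 scale TM4SF1 differed by 8.22 ± 0.73 (SE), adjusted p = 0.00267. LARP4, an RNA-binding protein, had 201 CPM in HC1 skin and 141 in HC3 skin, against 4.84, 3.69 and 3.99 in HC1 livers and 2.89, 1.76 and 2.18 in HC3 livers. The fitted log2 difference for LARP4 was 5.77 ± 0.55 (SE), adjusted p = 0.00267. All 3 were at 4.84 CPM or less in all livers and at 141 CPM or more in both skins. FUT3, a fucosyltransferase that builds blood group sugars, had 57.3 CPM in HC1 skin and 835 in HC3 skin, against 0, 0 and 0 in HC1 livers and 3.51, 1.76 and 1.04 in HC3 livers, and LCOR, a corepressor of nuclear receptors, had 34.6 CPM in HC1 skin and 54.5 in HC3 skin, against 0.231, 0.119 and 0.258 in HC1 livers and 0.207, 0.428 and 0.415 in HC3 livers. PI16, a secreted peptidase inhibitor, had 2318 CPM in HC1 skin and 24218 in HC3 skin, against 2.08, 11.4 and 2.77 in HC1 livers and 80.6, 34.1 and 92.4 in HC3 livers. For PI16 the log2 fold change was 8.60 ± 0.88 (SE), adjusted p = 0.00267. Each skin lay far above its livers, 429-fold above their mean in HC1 and 351-fold above it in HC3. FUT3, LCOR and PI16 shared an adjusted p of 0.00267, and 0.00651 with TMM scaling.

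Coagulation genes were the list with the largest share of lower calls, 8 of 17, against 1.01% of all genes, and the same number was lower with TMM scaling. FGA, the fibrinogen alpha chain, had 9.29 CPM in HC1 skin and 10.2 in HC3 skin, against 22499, 18573 and 27671 in HC1 livers and 52544, 47473 and 73988 in HC3 livers. This was 2466-fold lower in the HC1 skin and 5695-fold lower in the HC3 skin than the mean of the livers of each table, with the log2 fold change at -11.81 ± 1.25 (SE), adjusted p = 0.00267. KNG1, kininogen, had 4.11 CPM in HC1 skin and 0.784 in HC3 skin, against 9383, 8578 and 7377 in HC1 livers and 15596, 6801 and 8369.5 in HC3 livers (log2 fold change -11.95 ± 1.48 (SE), adjusted p = 0.00481), from 19 and 2 counts in the skins. PLG, plasminogen, kept more of its level, with 70.7 CPM in HC1 skin and 364 in HC3 skin, against 6804, 7997 and 3914 in HC1 livers and 5403, 3385 and 5742 in HC3 livers. PLG had a log2 fold change at -4.77 ± 1.11 (SE), adjusted p = 0.03303. SERPINC1, antithrombin, had 19.2 CPM in HC1 skin and 30.6 in HC3 skin, against 2824, 4152 and 2501 in HC1 livers and 2674, 1645 and 2221 in HC3 livers. SERPINC1 differed by -6.70 ± 1.03 (SE), adjusted p = 0.0102 on the log2 scale.

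Clotting factors followed. F9 had 1.94 CPM in HC1 skin and 0.784 in HC3 skin, against 419, 362 and 404 in HC1 livers and 426, 297 and 413 in HC3 livers, and F11 had 3.02 CPM in HC1 skin and 0.784 in HC3 skin, against 839, 1168 and 613 in HC1 livers and 657, 529 and 631 in HC3 livers. F13B had 0.864 CPM in HC1 skin and 1.57 in HC3 skin, against 100.2, 66.5 and 151 in HC1 livers and 130.2, 107 and 94.7 in HC3 livers, and F10 had 47.1 CPM in HC1 skin and 13.7 in HC3 skin, against 772, 959 and 605 in HC1 livers and 450.4, 265 and 464 in HC3 livers. All livers expressed these factors, and both skins lay far below them. Their log2 fold changes were -8.16 ± 1.04 (SE), adjusted p = 0.00614, -8.72 ± 1.13 (SE), adjusted p = 0.00615, -6.51 ± 0.94 (SE), adjusted p = 0.00899 and -4.41 ± 0.87 (SE), adjusted p = 0.0208. F5, by contrast, had 568 CPM in HC1 skin and 193 in HC3 skin, against 961 to 1574 in HC1 livers and 449 to 1129 in HC3 livers and was not called (adjusted p = 0.245). F2, prothrombin, was measured almost only in the HC1 table, with 1.94 CPM in HC1 skin, against 3591 to 4073 in HC1 livers (adjusted p = 0.635).

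FGB, the beta chain of fibrinogen, was not called. It had 241 CPM in HC1 skin and 14685 in HC3 skin, against 23844, 12261 and 33855 in HC1 livers and 45832, 86033 and 70243 in HC3 livers. The HC3 skin was thus 4.59-fold below the mean of its livers for FGB, against 5695-fold for FGA. The log2 fold change was -3.56 ± 1.28 (SE), adjusted p = 0.115, or -4.89 with TMM scaling (adjusted p = 0.0971). Ratios of other plasma protein and liver enzyme genes in the same HC3 skin to the mean of its livers differed widely. AMBP was 19010-fold lower, KNG1 13090-fold and F9 483-fold, from 1, 2 and 2 counts in that skin. PLG was 13.3-fold lower, C4A 9.62-fold and OTC 2.4-fold. FGG, the third chain, had at most 10.8 CPM in any library.

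Secreted carriers and inhibitors gave 9 lower calls among 23, and 7 with TMM scaling, against 1.01% and 1.04% of all genes. AMBP, the precursor of alpha-1-microglobulin and bikunin, had 12.5 CPM in HC1 skin and 0.392 in HC3 skin, against 9108, 7347 and 7672 in HC1 livers and 5958, 6967 and 9421 in HC3 livers. AMBP had a fitted log2 difference of -10.63 ± 1.68 (SE), adjusted p = 0.0107. RBP4, the plasma carrier of retinol, had 18.1 CPM in HC1 skin and 36.04 in HC3 skin, against 3278, 3468 and 2695 in HC1 livers and 1617, 1694 and 2434 in HC3 livers. For RBP4 the log2 fold change was -6.46 ± 1.04 (SE), adjusted p = 0.0107. SERPINA3, a protease inhibitor of plasma, had 9.94 CPM in HC1 skin and 1.57 in HC3 skin, against 5488, 2190.2 and 16226 in HC1 livers and 2723, 1699.6 and 2274 in HC3 livers. SERPINA3 had a log2 fold change at -10.00 ± 1.48 (SE), adjusted p = 0.00998. A2M, alpha-2-macroglobulin, had 2.16 CPM in HC1 skin and 5.48 in HC3 skin, against 729, 733 and 253 in HC1 livers and 13760, 8351 and 8346 in HC3 livers. A2M differed by -9.16 ± 1.44 (SE), adjusted p = 0.0107 on the log2 scale. The skins held at most 36.0 CPM of these 4 genes, and every liver held at least 253 CPM.

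CPN1, a subunit of carboxypeptidase N, ITIH1, a heavy chain of the inter-alpha-trypsin inhibitors, TF, transferrin, APOB, the main protein of lipoprotein particles, and CPN2 made up the rest. CPN1 had 0.432 CPM in HC1 skin and 1.57 in HC3 skin, against 424 to 453 in HC1 livers and 237 to 431 in HC3 livers, and ITIH1 had 0 CPM in HC1 skin and 1.57 in HC3 skin, against 166 to 324 in HC1 livers and 211 to 392 in HC3 livers. TF had 24.6 CPM in HC1 skin and 6.27 in HC3 skin, against 457 to 1477 in HC1 livers and 436 to 2099 in HC3 livers, and APOB had 0 CPM in HC1 skin and 19.2 in HC3 skin, against 0 to 0.258 in HC1 livers and 10834 to 17811 in HC3 livers. Adjusted p-values of CPN1, ITIH1, TF, APOB and CPN2 were 0.00783, 0.01496, 0.0266, 0.0301 and 0.0462. The call of APOB rested on the HC3 table alone. TF and APOB did not pass with TMM scaling (adjusted p = 0.0577 and 0.0502). AFM, afamin, a carrier of the albumin family, was the most abundant row of the HC1 livers, with 2907 CPM in HC1 skin, against 89579 to 129781 in HC1 livers, and was at most 0.830 CPM in the HC3 libraries, and it was not called (adjusted p = 0.579). PZP, a relative of A2M, lay on opposite sides, with 45.4 CPM in HC1 skin and 730.2 in HC3 skin, against 13703 to 33323 in HC1 livers and 0.481 to 70.1 in HC3 livers (adjusted p = 0.508). CP and CRP, plasma proteins that other tissues can also make, were not called. CP had 271 CPM in HC1 skin and 244 in HC3 skin, against 1299 to 3085 in HC1 livers and 803 to 3487 in HC3 livers (adjusted p = 0.0932). CRP had 293 CPM in HC1 skin and 76.4 in HC3 skin, against 207 to 251 in HC1 livers and 19.6 to 86.95 in HC3 livers (adjusted p = 0.798).

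**Figure D5:**
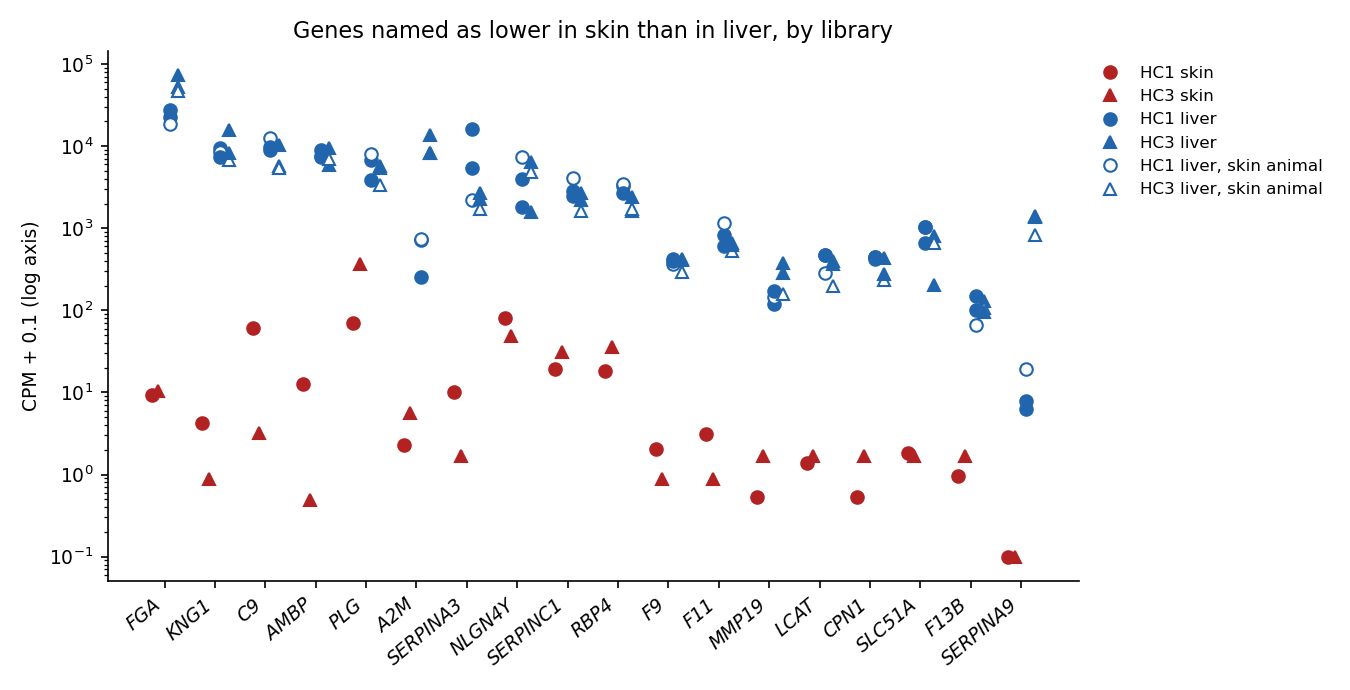
CPM plus 0.1 on a log axis for the genes named as lower in skin, 1 point a library, with skins in red to the left and livers in blue to the right. Open symbols are the livers of the skin animals, and both skins lie below all livers of their table for each gene plotted.

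Complement gave 2 lower calls among 16, also with TMM scaling, against 1.01% and 1.04% of all genes. C9, the pore-forming component, had 60.3 CPM in HC1 skin and 3.13 in HC3 skin, against 9062, 12705 and 9645 in HC1 livers and 5689, 5451 and 10389 in HC3 livers. C9 had a fitted log2 difference of -8.67 ± 1.47 (SE), adjusted p = 0.0134. CFP, properdin, had 47.8 CPM in HC1 skin and 5.88 in HC3 skin, against 2158, 1349 and 906 in HC1 livers and 228, 212 and 669 in HC3 livers. For CFP the log2 fold change was -5.40 ± 1.09 (SE), adjusted p = 0.0217. CFB had 388 CPM in HC1 skin and 35.3 in HC3 skin, against 2015 to 4597 in HC1 livers and 564 to 3993 in HC3 livers and was not called (adjusted p = 0.0764). C4A and C5 were measured almost only in the HC3 table, where C4A had 1116 CPM in HC3 skin, against 3907 to 23056 in HC3 livers.

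Bile acid genes moved in both directions, with 3 lower and 2 higher calls among 12, beside 1.01% and 7.97% of all genes. ABCB11, the bile salt export pump, had 0.864 CPM in HC1 skin and 4.701 in HC3 skin, against 795, 1567 and 947 in HC1 livers and 1314, 703 and 717 in HC3 livers. ABCB11 had a log2 fold change at -8.63 ± 1.33 (SE), adjusted p = 0.0102. SLC51A, a subunit of the transporter that returns bile acids to blood, had 1.73 CPM in HC1 skin and 1.57 in HC3 skin, against 667, 1027 and 1025 in HC1 livers and 805, 669.5 and 205 in HC3 livers. SLC51A differed by -8.75 ± 1.24 (SE), adjusted p = 0.0084 on the log2 scale. BAAT, which joins bile acids to amino acids, had 6.91 CPM in HC1 skin and 4.31 in HC3 skin, against 167 to 252 in HC1 livers and 138 to 227 in HC3 livers (log2 fold change -5.13 ± 0.83 (SE), adjusted p = 0.0108). ATP8B1, a lipid flippase, and ABCC3, an export pump also found outside liver, were higher, mainly from the HC1 table. ATP8B1 had 816 CPM in HC1 skin and 3.92 in HC3 skin, against 0.416 to 16.7 in HC1 livers and 0 to 0.413 in HC3 livers (adjusted p = 0.0343), and ABCC3 had 155 CPM in HC1 skin and 2.35 in HC3 skin, against 13.6 to 16.2 in HC1 livers and 0 to 0.413 in HC3 livers (adjusted p = 0.0478). The 3 lower calls held with TMM scaling and the 2 higher ones did not. CYP7A1, the rate-limiting enzyme of bile acid synthesis, was at 683 CPM in HC1 skin, against 308 to 696 in HC1 livers, and at most 1.24 CPM in the HC3 libraries (adjusted p = 0.815).

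Enzymes of amino acid breakdown gave 7 lower calls and none higher among 48, with the same numbers by TMM scaling. Of all genes 1.01% were lower, and 1.04% with TMM scaling. HAAO of the kynurenine path had 0.432 CPM in HC1 skin and 0 in HC3 skin, against 101, 508 and 243 in HC1 livers and 341, 366 and 186 in HC3 livers. HAAO had a fitted log2 difference of -10.16 ± 1.56 (SE), adjusted p = 0.0105. AMDHD1, an enzyme of histidine breakdown, had 0.864 CPM in HC1 skin and 2.35 in HC3 skin, against 305, 365 and 184 in HC1 livers and 108, 168 and 171 in HC3 livers. For AMDHD1 the log2 fold change was -6.96 ± 1.12 (SE), adjusted p = 0.0107. PCBD1, which recycles the cofactor of phenylalanine hydroxylase, had 10.4 CPM in HC1 skin and 8.62 in HC3 skin, against 181 to 249.5 in HC1 livers and 176 to 217 in HC3 livers (log2 fold change -4.47 ± 0.77 (SE), adjusted p = 0.0134). KMO and ACMSD, also of the kynurenine path, SLC25A13, a mitochondrial aspartate carrier, and HOGA1 were the other calls, at adjusted p-values of 0.0341, 0.04403, 0.0377 and 0.0364. TDO2, the first enzyme of that path, had 30.2 CPM in HC1 skin and 231 in HC3 skin, against 1782 to 3004 in HC1 livers and 925 to 1495 in HC3 livers, without passing (adjusted p = 0.08699).

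OTC, CPS1 and TAT did not pass the test. OTC, which makes citrulline, had 419 CPM in HC1 skin and 601 in HC3 skin, against 2281, 1458 and 2411 in HC1 livers and 1433, 1406 and 1485 in HC3 livers (adjusted p = 0.165). CPS1, the entry enzyme of the cycle, had 4.32 CPM in HC1 skin and 121 in HC3 skin, against 0 to 2.77 in HC1 livers and 9139 to 14505 in HC3 livers (adjusted p = 0.998). TAT, tyrosine aminotransferase, had 347 CPM in HC1 skin and 477 in HC3 skin, against 599.7 to 2449.6 in HC1 livers and 1555 to 4346 in HC3 livers (adjusted p = 0.136). Both skins lay below all livers for OTC and TAT, while CPS1 was near 0 in all HC1 libraries.

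Genes of cytochrome P450 and conjugation and of fatty acid oxidation gave 2 lower calls each. Of all genes 1.01% were lower and 7.97% higher, or 1.04% and 1.54% with TMM scaling. Among 29 genes of cytochrome P450 and conjugation, MGST1, a membrane glutathione transferase, and CYP4B1 were lower, both also with TMM scaling. MGST1 had 9.72 CPM in HC1 skin and 45.4 in HC3 skin, against 209 to 415 in HC1 livers and 217 to 417 in HC3 livers (adjusted p = 0.0442), and CYP4B1 had 6.91 CPM in HC1 skin and 9.01 in HC3 skin, against 87.1 to 105 in HC1 livers and 56.8 to 205 in HC3 livers (adjusted p = 0.0301). GSTA2, a cytosolic glutathione transferase, had 31076 CPM in HC1 skin and 1.57 in HC3 skin, against 498 to 1609 in HC1 livers and 0 to 0.516 in HC3 livers (adjusted p = 0.0619). Among 24 genes of fatty acid oxidation and peroxisomes, CAT, catalase, and ECI2 were lower and CPT2 was higher, while with TMM scaling 3 were lower. Both skins lay below all livers for 9 of the 24 and above them for 3, as for 224 and 2561 of all 5762. Of the 16 with 10 CPM in each table, 5 were lower and 2 higher, or 9 and 1 with TMM scaling. For cytochrome P450 and conjugation these were 3 and 1 of 12, or 5 and 0. Over all such genes 5.02% were lower and 28.1% higher, or 9.77% and 16% with TMM scaling. CAT had 121 CPM in HC1 skin and 134 in HC3 skin, against 2149, 4677 and 2119 in HC1 livers and 1366, 776 and 2182 in HC3 livers. CAT had a log2 fold change at -3.97 ± 0.98 (SE), adjusted p = 0.0397. ECI2 had 61.8 CPM in HC1 skin and 32.1 in HC3 skin, against 445 to 837 in HC1 livers and 185 to 346 in HC3 livers (adjusted p = 0.0403). CPT2 had 75.2 CPM in HC1 skin and 73.6 in HC3 skin, against 8.501 to 16.8 in HC1 livers and 2.83 to 10.3 in HC3 livers (adjusted p = 0.0301), and it did not pass with TMM scaling (adjusted p = 0.1404).

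Sugar and lipid metabolism was divided by enzyme. GBE1, the glycogen branching enzyme, was lower, with 17.5 CPM in HC1 skin and 19.2 in HC3 skin, against 258 to 411 in HC1 livers and 102 to 144 in HC3 livers (adjusted p = 0.0421). HK1, the hexokinase of most tissues other than liver, was higher, with 52.5 CPM in HC1 skin and 33.7 in HC3 skin, against 8.501 to 14.9 in HC1 livers and 3.102 to 6.09 in HC3 livers (adjusted p = 0.0461), though not with TMM scaling (adjusted p = 0.244). They were the 2 calls among 21 genes, where 7.97% of all genes were higher and 1.01% lower. LCAT, the plasma enzyme that esterifies cholesterol, was lower, with 1.296 CPM in HC1 skin and 1.57 in HC3 skin, against 474, 281 and 472 in HC1 livers and 372, 197 and 398 in HC3 livers. LCAT differed by -7.98 ± 1.07 (SE), adjusted p = 0.00713 on the log2 scale. SPTLC3 and UGCG, which make sphingolipids and glucosylceramide, the lipids of the epidermal barrier, were higher among the 28 lipid genes. This share was close to the 7.97% of all genes. UGCG had 92.9 CPM in HC1 skin and 45.8 in HC3 skin, against 13.1 to 22.7 in HC1 livers and 1.34 to 3.72 in HC3 livers (adjusted p = 0.02198), and SPTLC3 had 171 CPM in HC1 skin and 3.13 in HC3 skin, against 3.67 to 16.6 in HC1 livers and 0 to 0.415 in HC3 livers (adjusted p = 0.0407). Neither passed with TMM scaling, at adjusted p-values of 0.09 and 0.1701.

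The remaining lower genes named by rank had varied roles. SERPINA9, a serpin, had no count in either skin, against 6.23, 19.4 and 7.66 CPM in the HC1 livers and 1428, 836 and 1356 CPM in the HC3 livers. Set against a floor of 3 counts in the skin, it was at least 17.1-fold lower in HC1 and at least 1027-fold lower in HC3 (adjusted p = 0.00899). MMP19, a matrix metalloproteinase, had 0.432 CPM in HC1 skin and 1.57 in HC3 skin, against 119.8, 144 and 169.6 in HC1 livers and 283, 159.6 and 375 in HC3 livers. MMP19 had a fitted log2 difference of -7.84 ± 1.04 (SE), adjusted p = 0.00692. A row named NLGN4Y, a neuroligin, had 80.2 CPM in HC1 skin and 48.97 in HC3 skin, against 1807, 7301 and 4009 in HC1 livers and 6402, 4801 and 1587 in HC3 livers. For NLGN4Y the log2 fold change was -6.09 ± 1.20 (SE), adjusted p = 0.02102. CPB1, a pancreatic carboxypeptidase, was lower (adjusted p = 0.0479), with no count in either skin, against 350 to 973 CPM in HC1 livers and 0 to 1.45 in HC3 livers. Its call rested on the HC1 table alone, and it did not pass with TMM scaling (adjusted p = 0.0857). It was the 1 call among 5 pancreatic genes, where 1.01% of all genes were lower. CTRC, a pancreatic protease, had 4.75 CPM in HC1 skin and 1259.9 in HC3 skin, against 391 to 1442 in HC1 livers and 3534 to 12295 in HC3 livers (adjusted p = 0.114). The pancreas markers summed above, which did not include CTRC, also differed among the HC3 livers, and their part in these values was not tested.

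Genes of general cell function gave few calls, beside 7.97% of all genes higher and 1.01% lower. Of 37 ribosomal protein genes, RPL27A was higher (adjusted p = 0.0337) and none was lower, with a median log2 fold change of -0.07, or -1.60 relative to that of all genes. RPS9 had 1759.7 CPM in HC1 skin and 1583 in HC3 skin, against 1632, 1736 and 1672 in HC1 livers and 1828, 2225 and 892 in HC3 livers, and RPL15 had 1802 CPM in HC1 skin and 1965 in HC3 skin, against 2438, 1386 and 2373 in HC1 livers and 1924, 2345 and 1272 in HC3 livers. RPL27A, with 444 CPM in HC1 skin and 39.96 in HC3 skin, against 32.9 to 86.2 in HC1 livers and 0.642 to 5.06 in HC3 livers, did not pass with TMM scaling (adjusted p = 0.154). Not all members were level: RPS2 had 5585 CPM in HC3 skin, against 71.9 to 251 in HC3 livers. RPS9, RPL15 and RPS2 were chosen after their values were seen. Among the 2292 genes with 10 CPM in each table, 2 of 28 ribosomal protein genes were higher. With TMM scaling 2 were higher and 1 lower. Lists of oxidative phosphorylation (21 genes), mitochondrially encoded genes (5), heat shock and folding (22), cell division (19), hepatic regulators (18) and enterocytes (5) gave no call by edgeR's quasi-likelihood test, on whole-table totals or with TMM scaling. At an unadjusted p under 0.05 they held 0, 1, 3, 0, 4 and 0 genes in that order, and DESeq2 called 5, 2, 4, 0, 2 and 0. Over all genes these counts were 1610 and 1050. Within the 2292 genes with 10 CPM or more in at least 1 library of each table, edgeR called 1 heat shock gene and 1 hepatic regulator higher, and with TMM scaling 4 oxidative phosphorylation genes and 1 heat shock gene lower. Of 18 iron and heme genes, TF was lower and HFE higher (adjusted p = 0.02196), beside 1.01% and 7.97% of all genes. With TMM scaling neither passed, HFE at an adjusted p of 0.128.

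Whether the tissue difference itself differed between the lineages was tested as an interaction, in which each lineage had 1 skin that was assumed to vary like the livers. No gene passed by edgeR's quasi-likelihood test, with 297 at an unadjusted p under 0.05, while DESeq2 called 178. Without the livers of the skin animals, 52 genes passed by edgeR. Within HC3, 158 genes (2.74%) were called, 134 higher and 24 lower, and 15 with TMM scaling. Within HC1 none was called, with 793 at an unadjusted p under 0.05. Over the 2292 genes with 10 CPM or more in each table, 600 were called within HC3 and 112 within HC1. A lineage here is also 1 animal's skin, 1 table and 1 set of assembled sequences, so these cannot be told apart. The skins of the 2 lineages lay on opposite sides of their livers for 395 of the 5762 genes, and for 131 of the 2292.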

How the data were processed

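RNA sequencing counts of 2 skins and 6 livers of Hynobius leechii were taken from the tables deposited by the authors, 1 per lineage, which hold whole-number read counts for each named symbol. The submitters' processing notes name BWA and SAMtools. Versions, genome build, counting rule and strand are not given in the sources used here. Titles gave lineage, tissue and animal; some sample descriptions name another lineage's table and were not used for grouping. The unnamed row, which held up to 0.169% of the counts, stayed out of the tests.

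Symbols found in both tables were joined, and genes with enough counts by filterByExpr (minimum count 10) were tested with edgeR 4.0.16 (R 4.3.3) by the quasi-likelihood test. The model held lineage and tissue over 8 libraries, with whole-table totals as library sizes and 5 residual degrees of freedom. P-values were adjusted by Benjamini-Hochberg over all tested genes, and calls were made at 0.05. SE is the log2 fold change divided by the root of the F statistic. The procedure was tested on simulated counts, drawn independently for each library around the liver means. These counts did not model the high odd-count share of the skin animals' livers or the pairing by animal. They therefore say nothing on how either affects the calls. Counts are reads, so floors of 3 counts (0.648 CPM in the HC1 skin, 1.18 CPM in the HC3 skin, 0.16 to 0.346 CPM in the livers) cover counting error only. No label says that libraries of a group are technical repeats, and each is a different animal.

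Named genes were, in each direction, the 10 most abundant and the 10 of smallest p among called genes with a log2 fold change of at least 1 and skins outside the livers in both tables, and up to 4 called and 2 uncalled members of each list. Other genes named, such as KLF4, F10, F5, OTC, TP63, SPINK5, PERP, RPS9, RPL15 and RPS2, were chosen after their values were seen. Members and lists were chosen with earlier results of these data known. Titles pair the skins with livers of the same 2 animals. With 1 skin per lineage, a correlation of paired deviations cannot be computed, and the fit with animal as a block has 1 residual degree of freedom. Alternatives were TMM and median-of-ratios scaling, other filters, DESeq2 1.42.0, a term for the 2 livers in which over 0.3 of the counts under 20 were odd, the animal block and leaving out libraries. The filter of 10 CPM in each table and the fits combining it or TMM with other changes were chosen after seeing the data. Some genes are not reported here. No sequence was printed, as no reference was used here.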

Additional observations from a re-analysis of the deposited data

Results flagged for a closer look

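For 12 of the named genes, the skin of 1 lineage lay above its 3 livers and the skin of the other lineage below its 3 livers. The difference of the log2 fold changes, HC3 minus HC1, was tested as an interaction by edgeR's quasi-likelihood test, and none passed.

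PZP, a plasma protease inhibitor, had 45.4 CPM in HC1 skin and 730.2 in HC3 skin, against 13703 to 33323 in HC1 livers and 0.481 to 70.1 in HC3 livers, a difference of 13.21 (adjusted p = 0.673). CYP2D6, a cytochrome P450, had 237 CPM in HC1 skin and 68.9 in HC3 skin, against 2822 to 3729 in HC1 livers and 0 to 0.413 in HC3 livers, a difference of 12.22 (adjusted p = 0.544). HBB, a globin, had 0.216 CPM in HC1 skin and 6483 in HC3 skin, against 2.88 to 5.796 in HC1 livers and 899 to 3738 in HC3 livers, a difference of 6.05 (adjusted p = 0.708). BMP1, a metalloproteinase that processes collagen, had 20.1 CPM in HC1 skin and 19.98 in HC3 skin, against 289 to 493 in HC1 livers and 0 to 2.08 in HC3 livers, a difference of 8.05 (adjusted p = 0.849). In these 4 genes the HC3 skin was the one above its livers. Some of these values also rest on few counts. HBB had 1 count in HC1 skin, against 25 to 90 in HC1 livers. The HC3 livers held 0 to 4 counts of CYP2D6 and 0 to 20 of BMP1.

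C5, a complement component, had 1.296 CPM in HC1 skin and 212 in HC3 skin, against 0 to 0.129 in HC1 livers and 1769.99 to 6334 in HC3 livers, a difference of -8.51 (adjusted p = 0.643). FN1, fibronectin, had 3.89 CPM in HC1 skin and 249.5 in HC3 skin, against 0 to 0.515 in HC1 livers and 3323 to 5253 in HC3 livers, a difference of -8.50 (adjusted p = 0.709). CPS1 had 4.32 CPM in HC1 skin and 121 in HC3 skin, against 0 to 2.77 in HC1 livers and 9139 to 14505 in HC3 livers, a difference of -8.23 (adjusted p = 0.8296). CELA2A, a pancreatic elastase, had 1.296 CPM in HC1 skin and 17.2 in HC3 skin, against 0 to 0.773 in HC1 livers and 143 to 1019 in HC3 livers, a difference of -7.29 (adjusted p = 0.899). P4HB, a folding enzyme, had 0.432 CPM in HC1 skin and 3397 in HC3 skin, against 0 to 0.231 in HC1 livers and 4790.2 to 6941 in HC3 livers, a difference of -2.74 (adjusted p = 0.954). These 5 were near 0 in the HC1 table, so their opposite direction there rests on few counts.

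NDUFB3, LDHA and RPL7 had differences of 2.71, 2.21 and 2.15, each with an adjusted p of 0.954. LDHA, lactate dehydrogenase, had 544 CPM in HC1 skin and 1639.9 in HC3 skin, against 1179.9 to 1710.4 in HC1 livers and 765 to 1141 in HC3 livers. NDUFB3, a subunit of respiratory complex I, had 35.2 CPM in HC1 skin and 1182 in HC3 skin, against 102 to 146 in HC1 livers and 453 to 776 in HC3 livers. RPL7, a ribosomal protein, had 2467 CPM in HC1 skin and 10278 in HC3 skin, against 4245 to 5265 in HC1 livers and 2202 to 6175 in HC3 livers. Opposite sides were found for 395 of all 5762 genes, so these are examples among many.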

How the results depend on the processing

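Counts of called genes moved with the scaling, the livers of the skin animals and the pairing, and no named gene called by edgeR reversed. Genes higher in skin, 459 on whole-table totals, numbered 89 with TMM scaling, 179 with median-of-ratios scaling, 172 with a term for the 2 livers of high odd-count share, 719 by DESeq2, 716 without the livers of the skin animals and 158 without them under TMM scaling. Over genes with 10 CPM in each table they numbered 644, with 510 without the HC1 skin and 61 without the HC3 skin. Genes lower in skin, 58, numbered 37 with that term, 331 by DESeq2, 88 without the livers of the skin animals, and 102 without them under TMM scaling. Over genes with 10 CPM in each table they numbered 115, with TMM scaling 224, and 116 without the livers of the skin animals. Leaving out 1 library at a time gave 0 to 515 higher and 0 to 68 lower, with 0 of either without the HC3 skin. The next lowest counts, 113 higher, came without HC3 liver mms7660 or mms7662. The causes were not tested.

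With animal as a replicate block, in all libraries or in the paired animals alone, 0 genes were higher and 0 lower, with 1034 and 636 at an unadjusted p under 0.05. With 1 residual degree of freedom, this says little on stability.

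The difference between lineages, with 0 calls, gave 52 without the livers of the skin animals, 178 by DESeq2 and 16 without those livers under TMM scaling. Leaving out 1 liver at a time gave 0 to 0. Within HC1, with 0 calls, the same leaving-out of the skin animals' livers gave 359, with TMM scaling 190, and the 10 CPM filter gave 112. Leaving out 1 liver gave 0 to 52. Within HC3, with 158 calls, TMM scaling gave 15, median-of-ratios 47, the skin animals' livers left out 1043, with TMM scaling as well 369, and the 10 CPM filter 600. Leaving out 1 liver gave 0 to 453.

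Of the 35 genes named for level or p in either direction, 31 stayed called with TMM scaling, 28 without the HC1 skin, 0 without the HC3 skin and 35 without the livers of the skin animals. None changed sign. The shallow skins limit the lower genes: a count of 0 in the HC3 skin allows up to 1.18 CPM.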

Other observations

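The most abundant rows of each skin included genes not described above, chosen after their values were seen. Apart from MT-CYB and MT-ND5 they are given without a test and for 1 table only. Whether the skin of the other table went the same way is therefore not shown for them. In the HC1 table, KRT7, a simple-epithelium keratin named in that table only, had 32222 CPM in the skin, against 42.9 to 287 CPM in the livers. MUC19, a gel-forming mucin, had 17369 CPM in HC1 skin, against 0 to 3.46 in HC1 livers. TRIM29, a protein of stratified epithelia, had 5415 CPM in HC1 skin, against 0.119 to 4.44 in HC1 livers. MT-CYB, the mitochondrial cytochrome b, had 93681 CPM in HC1 skin, against 9908 to 37717 in HC1 livers. In the HC3 table MT-CYB had 2890 CPM in the skin, against 2425 to 3047 in the livers. It was not called by edgeR (adjusted p = 0.307). MT-CO3, a subunit of cytochrome oxidase, had 11164 CPM in HC1 skin, against 13975 to 38554 in HC1 livers.

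In the HC3 table, NOP58, a protein of nucleolar ribonucleoproteins, had 55125 CPM in HC3 skin, against 1703 to 8289.7 in HC3 livers. MT-ND5, a mitochondrial complex I subunit, had 8744 CPM in HC3 skin, against 102122 to 143292 in HC3 livers. In the HC1 table MT-ND5 had 2668 CPM in the skin, against 2527 to 12674 in the livers. It was not called by edgeR (adjusted p = 0.198).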
